A study of Mus musculus with 7 samples.

Results

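The 10 genes described here encode the neuron's internal skeleton: the neurofilament subunits Nefl, Nefm, Nefh and Ina, the tau gene Mapt, the microtubule-associated proteins Map2, Map1a and Map1b, the neuronal tubulin Tubb3 and the stathmin Stmn2. They were chosen by name. All 10 were found among the 23413 gene symbols counted, and all 10 were among the 15881 genes that passed the filter on low counts. The values are RNA-seq read counts from cortical tissue of 7 APP/PS1 mice, 1 library for each mouse. APP/PS1 mice carry the APPswe and PSEN1dE9 transgenes for mutant human amyloid precursor protein and presenilin. From 6 months of age 4 mice ate a control diet (CD, called SD in the sample labels) with 74% of its energy as carbohydrate, 10% as protein and 16% as fat. The other 3 ate a ketogenic diet (KD) with less than 0.5% as carbohydrate, 10% as protein and 90% as fat. Both groups carried both transgenes and stayed on their diet until the brains were collected, the libraries analysed here include no wild-type mouse, and the labels do not give the sex of these 7 mice. The question was which transcripts differed between KD and CD.

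Neurofilaments are the intermediate filaments of neurons. They assemble from a light (Nefl), a medium (Nefm) and a heavy (Nefh) chain together with alpha-internexin (Ina), and they set the calibre of large myelinated axons. Microtubules are polymers of alpha and beta tubulin, such as the neuron-specific beta tubulin of Tubb3. Tau (Mapt) binds microtubules mainly in the axon and MAP2 (Map2) mainly in dendrites, while MAP1A and MAP1B are found in both, MAP1B being the earlier one in development. Stathmins such as Stmn2 bind free tubulin and favour disassembly. In Alzheimer's disease tau accumulates in neurofibrillary tangles, and neurofilament light chain in blood or cerebrospinal fluid is used as a marker of axonal damage.

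Among the 10 genes, Ina had the lowest raw p-value and was lower on KD, and Map2 came next and was higher on KD. In both, no KD mouse overlapped the CD mice, as in 4.11% of all tested genes. The other 8 genes overlapped between the diets. Nefh had the largest difference in size but also a wide spread among mice. The mean levels of Mapt and Stmn2 in KD and CD lay within a few percent of each other. None of these differences passed an adjusted p-value of 0.05 over all tested genes.

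For orientation, the 250 bases before the RefSeq start site of the pair of genes whose diets did not overlap are shown here 5′ to 3′, in GRCm38.p6, both on the plus strand. The Ina window lies at chr19:47014431-47014680 and that of Map2 at chr1:66175079-66175328. Capitals mark the GC box, GGGCGG on either strand (CCGCCC when read from the other one), a short motif bound by Sp1-type factors.
Ina: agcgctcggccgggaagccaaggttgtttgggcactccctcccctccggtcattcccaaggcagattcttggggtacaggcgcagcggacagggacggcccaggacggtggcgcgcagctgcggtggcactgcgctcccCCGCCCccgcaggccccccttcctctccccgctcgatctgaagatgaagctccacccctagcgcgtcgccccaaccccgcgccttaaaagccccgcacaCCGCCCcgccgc
Map2: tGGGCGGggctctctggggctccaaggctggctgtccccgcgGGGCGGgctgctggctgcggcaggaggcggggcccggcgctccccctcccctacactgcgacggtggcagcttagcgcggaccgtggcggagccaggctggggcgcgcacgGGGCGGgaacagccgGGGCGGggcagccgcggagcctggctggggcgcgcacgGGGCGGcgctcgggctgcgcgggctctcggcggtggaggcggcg
The Ina window held 2 GC boxes and the Map2 window 5. Of all 32851 such windows in the RefSeq table, 32.7% held at least 1. G and C made up 70.8% of the Ina window and 81.2% of the Map2 window, against a median of 52.4% over all windows. Neither window held the TATA box TATAAA, which 12.4% of all windows hold, the CCAAT box CCAAT (33.8%), the TGACG core of the cAMP response element (17.8%) or the E-box CACGTG (6.02%), each searched on both strands. Windows were matched by symbol for 5 of the 10 genes, the others being Map1a, Map1b and Tubb3, whose diets overlapped. Their windows held 4, 1 and 2 GC boxes, with 66.0, 66.4 and 68.0% G and C. GC boxes and a high GC content were thus not particular to Ina and Map2. The Map1b window held 1 TATA box, and the Map1a and Tubb3 windows 1 CCAAT box each. These matches describe the letters of the windows and nothing was measured there.

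Libraries held from 22272883 to 36614954 counts, and KD replicates 1 and 3 were the shallowest. Every one of the 10 genes had at least 717 counts in every library, and the spread between mice, not counting error, limits these comparisons. Levels of genes are given as CPM, the counts scaled to library size corrected by TMM (the trimmed mean of M-values), and sums of markers as CPM of the plain library total. Each of the 6 excitatory neuron markers listed for the check of the tissue was detected, with a summed level of 1269.7 to 1851.6 CPM, while the 5 cerebellum and hindbrain markers summed to 36.3 CPM in CD replicate 4 and to 3.16 to 4.82 CPM elsewhere. Some libraries stood apart. The 10 oligodendrocyte markers summed to 1227 CPM in CD replicate 3, 1260 CPM in KD replicate 3 and 2342 CPM in KD replicate 2, against 4122 to 4652 CPM in CD replicates 1, 2 and 4 and 4573 CPM in KD replicate 1. CD replicate 4 held 67.7 CPM of the 6 olfactory bulb markers, against 4.15 to 17.7 CPM elsewhere, and 339 CPM of the 7 meningeal fibroblast markers, against 48.1 to 157.7 CPM elsewhere. The 6 choroid plexus markers summed to 455 CPM in CD replicate 1, the highest library for Nefh, Ina and Map1a, against 10.6 to 71.9 CPM elsewhere, and all 6 had a lower level in KD. The part of these differences between libraries in the values below was not tested, and values without single libraries are given beside the genes. None of these markers was at 0 in every library. In bulk cortex, fewer cells of a type and less RNA per cell cannot be told apart.

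The neurofilament genes are taken first. Ina, which encodes alpha-internexin, is annotated in mm10 at chr19:47014698-47025327 on the plus strand. Its level was 52.2, 49.1, 46.3 and 47.8 CPM in CD replicates 1 to 4, and 39.7, 40.7 and 31.7 CPM in KD replicates 1 to 3. Every KD mouse was below every CD mouse, and KD replicate 3 was the lowest. The KD mean was 37.4 ± 4.93 CPM (SD, n = 3), against 48.9 ± 2.49 CPM (SD, n = 4) for CD. This is a log2 fold change of -0.39 (standard error 0.11), or a change of -23.5%. The raw p-value was 0.00633 and the Benjamini-Hochberg adjusted p-value 0.979 in edgeR's quasi-likelihood test, and an exact permutation test over the 7 libraries gave p = 0.0286, the smallest value that 35 regroupings can give. The raw p was above 0.01 without CD replicate 1 (0.0188), CD replicate 2 (0.0154), CD replicate 4 (0.0103), KD replicate 1 (0.0103) or KD replicate 3 (0.0152) in edgeR's test. Without KD replicate 3 the log2 fold change was -0.28. The gene shares 456 bases of its annotated exons with Nt5c2 on the opposite strand, and the log2 fold change of Nt5c2 itself was 0.05.

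Nefh, the heavy chain, is annotated at chr11:4938754-4948064. It had 104 CPM in CD replicate 1, 79.8 in CD replicate 2, 62.1 in CD replicate 3 and 87.3 in CD replicate 4, against 76.4, 58.1 and 32.7 CPM in KD replicates 1 to 3. The diets overlapped, since KD replicate 1 lay above CD replicate 3. The KD mean was 55.7 ± 21.9 CPM (SD, n = 3), against 83.3 ± 17.5 CPM (SD, n = 4) for CD. The log2 fold change of -0.58 (standard error 0.28) had a raw p of 0.0668 and an adjusted p of 0.979 in edgeR's quasi-likelihood test, and p = 0.114 in the exact permutation test. A single mouse carried much of the difference, which was -0.31 without KD replicate 3 and -0.87 without KD replicate 1. It was -0.45 without CD replicate 1. With Xist, a transcript of the inactive X chromosome, as a covariate it was -0.70, and the raw p in edgeR was then below 0.01 (0.00417). Without a covariate, the raw p was 0.0382 in DESeq2, 0.0482 in edgeR's likelihood-ratio test and 0.0493 in limma-voom. After removal of each library's GC and length trend it was 0.103 in edgeR's quasi-likelihood test. The adjusted p stayed above 0.05 in each of these fits.

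Nefm, the medium chain, had 111, 122, 73.4 and 86.1 CPM in the CD mice and 88.1, 112 and 53.5 CPM in the KD mice. KD replicate 3 was again the lowest, and the other KD mice sat inside the CD range. The log2 fold change was -0.22 (standard error 0.26, raw p = 0.428 in edgeR, exact permutation p = 0.543), and it was 0.02, on the other side of 0, without KD replicate 3.

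Nefl, the light chain, was the most abundant of the 4 per length of exon. It had 440, 479, 348 and 337 CPM in the CD mice and 358, 407 and 322 CPM in the KD mice. All but KD replicate 3 lay inside the CD range. The log2 fold change was -0.15 (standard error 0.15, raw p = 0.342 in edgeR, exact permutation p = 0.429), and -0.05 without CD replicate 2. On chromosome 14 the annotation places Nefl (68083863 to 68089095) inside the span of Nefm (68082590 to 68124846) on the opposite strand, with 1108 exon bases in common. The library kit keeps strand, but the strand setting of the counting is not given in the sources used here. The overlap may therefore affect the counts of both genes.

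**Figure D1:**
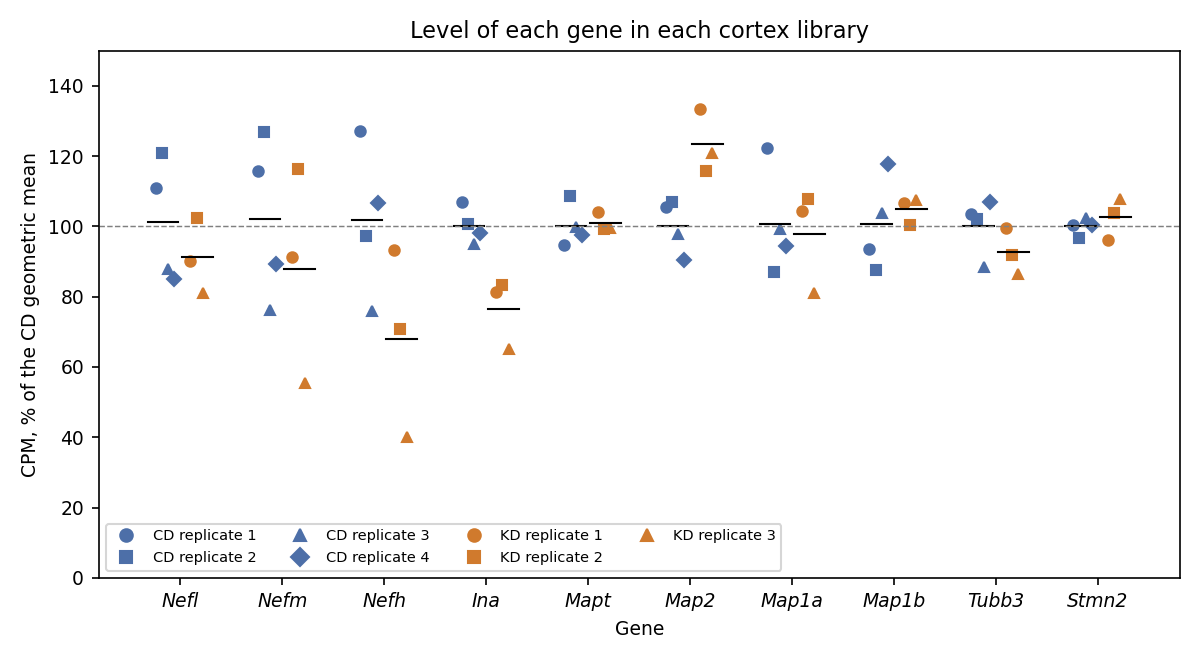
CPM of each gene in each library, as a percent of the geometric mean of the 4 CD libraries (dashed line at 100%), with blue for CD, orange for KD, a marker shape for each replicate number and a black line for the arithmetic mean of each group. The 3 KD mice lie below all CD mice for Ina and above all CD mice for Map2, and KD replicate 3 is the lowest point for Nefl, Nefm, Nefh, Ina, Map1a and Tubb3.

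The ratio of 2 genes within a library does not depend on how the library was scaled. Nefh counts were 23.7, 16.6, 17.8 and 25.9% of Nefl counts in the CD mice and 21.3, 14.3 and 10.2% in the KD mice. KD replicate 1 lay inside the CD range and the other 2 KD mice below it. The log2 ratio was lower by 0.50 in KD (-2.78 ± 0.53, SD, n = 3, against -2.28 ± 0.31, SD, n = 4), and the exact permutation p was 0.171. Without KD replicate 3 the difference was -0.24.

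Nefm counts were 25.3, 25.5, 21.1 and 25.5% of Nefl counts in CD and 24.6, 27.6 and 16.6% in KD. The proportion of medium to light chain was thus nearly the same in 3 of the 4 CD mice, and the lowest values were CD replicate 3 and KD replicate 3. The exact permutation test gave p = 0.686. Ina counts were 11.9, 10.2, 13.3 and 14.2% of Nefl counts in CD and 11.1, 10.0 and 9.86% in KD, and the diets overlapped (exact permutation p = 0.114).

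Map2, the dendritic microtubule-associated protein, stood on the other side. GENCODE places it at chr1:66175273-66442583 on the plus strand, with a start inside the RefSeq window printed above. It had 1114, 1130, 1034 and 954 CPM in CD replicates 1 to 4, and 1409, 1222 and 1276 CPM in KD replicates 1 to 3. Every KD mouse was above every CD mouse, with KD replicate 1 the highest. The KD mean was 1302 ± 96.2 CPM (SD, n = 3), against 1058 ± 80.9 CPM (SD, n = 4) for CD. The log2 fold change was 0.30 (standard error 0.10), or a change of 23.1%. The raw p-value was 0.0130 and the adjusted p-value 0.979 in edgeR's quasi-likelihood test, and the exact permutation test gave p = 0.0286, again the smallest it allows. The log2 fold change ran from 0.24 to 0.34 when each library was left out in turn, and the raw p was above 0.05 without KD replicate 1 (0.0633).

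Mapt, the tau gene at chr11:104231390-104332090, had 508, 583, 535 and 523 CPM in the CD mice. The KD mice had 558, 532 and 533 CPM. All KD mice lay inside the CD range, and the means of 541 ± 14.8 CPM (SD, n = 3) and 537 ± 32.3 CPM (SD, n = 4) gave a log2 fold change of 0.01 (standard error 0.08, raw p = 0.889 in edgeR, exact permutation p = 0.8). Its sign was reversed without CD replicate 1, CD replicate 4 or KD replicate 1. Counts per gene do not separate the tau isoforms with more or fewer microtubule-binding repeats, so a shift between isoforms was not analysed here.

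Mapt counts were 45.6, 51.6, 51.8 and 54.8% of Map2 counts in the CD mice and 39.6, 43.6 and 41.8% in the KD mice. No KD mouse overlapped the CD mice. The log2 ratio was -1.26 ± 0.07 (SD, n = 3) in KD and -0.98 ± 0.11 (SD, n = 4) in CD, a difference of -0.29 with p = 0.0571 in the exact permutation test. Over the 8 ratios computed, the Benjamini-Hochberg adjusted value was 0.457.

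**Figure D2:**
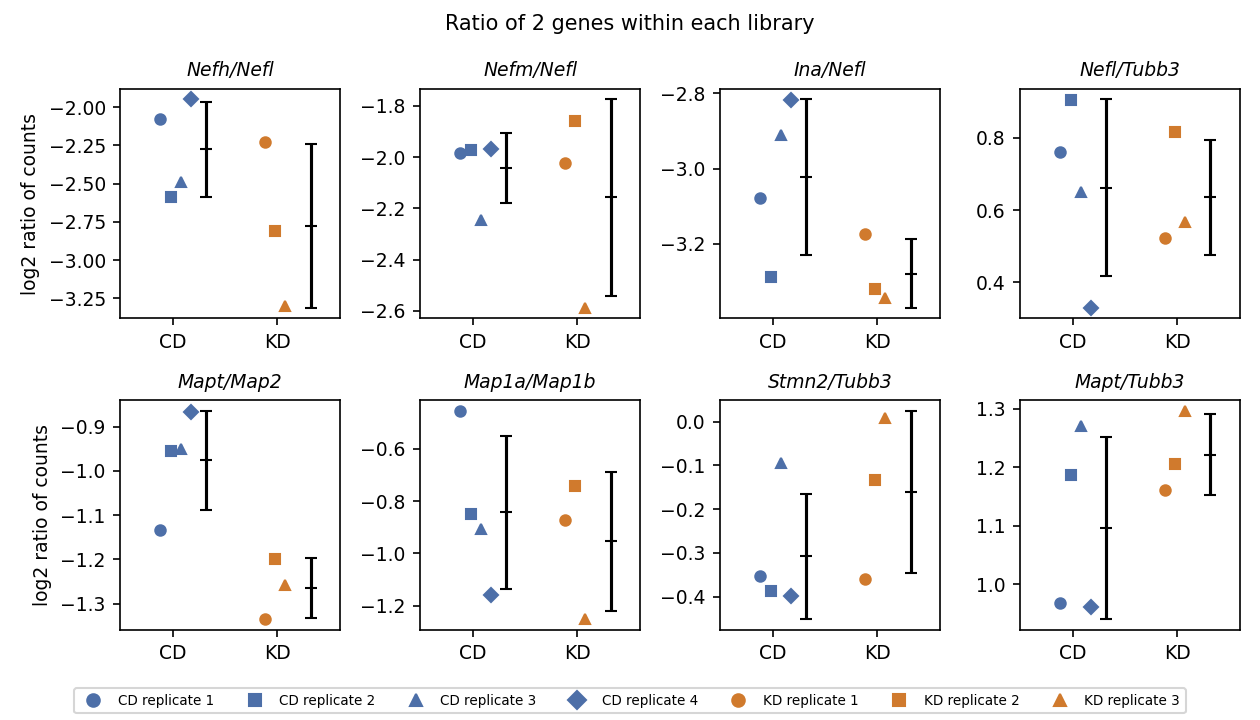
Log2 ratio of the counts of a pair of genes in each library, for the 8 pairs, in CD (blue, n = 4) and KD (orange, n = 3), with a marker shape for each replicate number and black bars for the mean and SD. Mapt/Map2 is the pair in which the diets do not overlap, and in Nefh/Nefl the KD mice span -3.30 to -2.23.

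Map1a and Map1b, a pair of large related proteins, overlapped between the diets. Map1a had 1301, 925, 1054 and 1005 CPM in the CD mice and 1111, 1147 and 861 CPM in the KD mice. CD replicate 1 was the highest and KD replicate 3 the lowest, and the log2 fold change was -0.04 (standard error 0.15, raw p = 0.772 in edgeR, exact permutation p = 0.8). It was 0.06 without CD replicate 1 and 0.07 without KD replicate 3. Map1b had 1783, 1669, 1979 and 2244 CPM in the CD mice and 2032, 1916 and 2051 CPM in the KD mice, all KD mice lying inside the CD range. Its log2 fold change was 0.06 (standard error 0.11, raw p = 0.617 in edgeR, exact permutation p = 0.6). Map1a counts ran from 44.8 to 73.0% of Map1b counts in CD and from 42.0 to 59.9% in KD (exact permutation p = 0.657).

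Tubb3, the neuronal beta tubulin, had 260, 256, 222 and 269 CPM in the CD mice and 250, 231 and 217 CPM in the KD mice. KD replicate 3 was the lowest and CD replicate 3 next. The log2 fold change was -0.11 (standard error 0.09, raw p = 0.255 in edgeR, exact permutation p = 0.229). Beta tubulin genes share much of their sequence, so reads that match several of them make these counts less certain. Stmn2, the tubulin-binding stathmin, was the steadiest within CD, with 204, 196, 208 and 204 CPM in the CD mice and 195, 210 and 218 CPM in the KD mice. Its log2 fold change was 0.04 (standard error 0.07, raw p = 0.633 in edgeR, exact permutation p = 0.457). The ratios of Stmn2 to Tubb3 and of Mapt to Tubb3 (exact permutation p = 0.286 for each) overlapped between the diets, as did that of Nefl to Tubb3, with a log2 difference of -0.03.

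**Figure D3:**
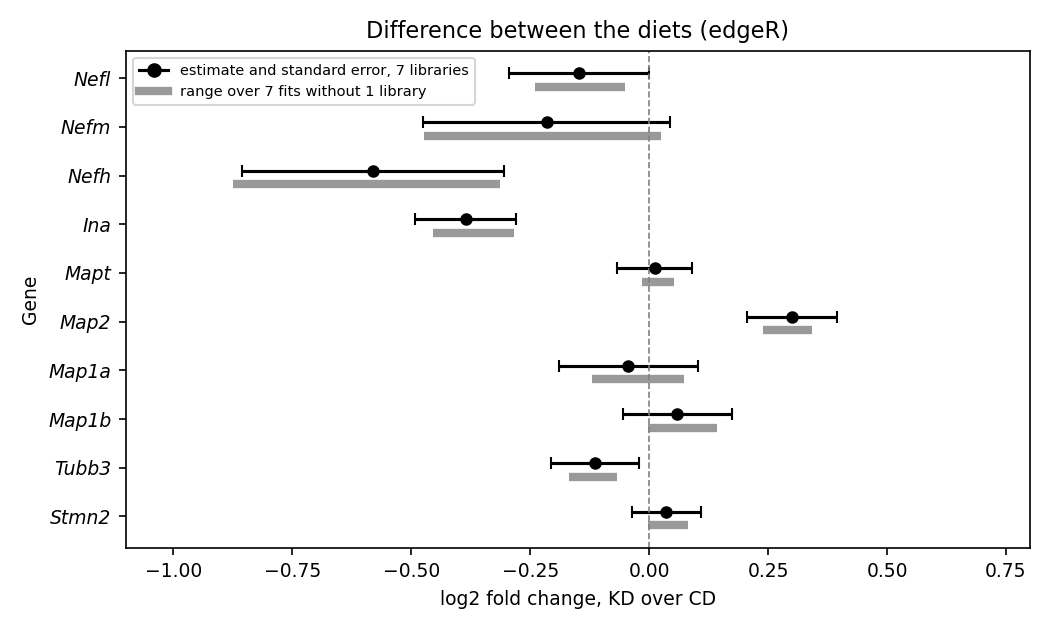
Log2 fold change of KD over CD for each gene, with its standard error (black, all 7 libraries, edgeR) and the range over the 7 fits that each left out 1 library (grey bar). The bars of Ina, Nefh, Nefl and Tubb3 stay below 0 and that of Map2 above 0, while those of Nefm, Mapt, Map1a, Map1b and Stmn2 reach both sides of 0.

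Across the 10 genes, 6 had a lower and 4 a higher level in KD. Their median log2 fold change was -0.08, against -0.00329 over all tested genes. A raw p-value of at most 0.01, the threshold used in the study, was reached by 1 of the 10 (Ina), where 0.321% of all tested genes reached it, 0.17% with a lower and 0.151% with a higher level in KD. These shares come from the fit made here, which called 51 genes at that threshold. The study reported more genes at the same raw threshold. A raw p under 0.05 was reached by 2 of the 10 (Ina and Map2, the latter not without KD replicate 1), where 3.19% of all tested genes reached it. The diets did not overlap for these same 2 genes, as they did not for 4.11% of all tested genes, 2.07% lower and 2.05% higher in KD. With edgeR's quasi-likelihood test and with DESeq2 0 of the 10 passed an adjusted p of 0.05, and 0% of all tested genes did. The 10 genes were picked by name for this account with results of these libraries already known, so these counts are a description.

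The genes differed in how steady they were. Within CD the coefficient of variation of the CPM was 2.45% for Stmn2, 5.10% for Ina, 6.02% for Mapt, 7.65% for Map2 and 8.15% for Tubb3. It was 13.1% for Map1b, 15.1% for Map1a, 17.3% for Nefl, 20.9% for Nefh and 22.9% for Nefm, beside a median of 9.16% over tested genes of at least 30 CPM. Within KD it reached 39.3% for Nefh and 34.9% for Nefm, beside a median of 8.25%. The order was not the same in both diets. Within KD, Mapt (2.73%) and Map1b (3.65%) were steadier than Stmn2 (5.85%), and Ina (13.2%) was above the median. The low neurofilament values in KD were lowest in KD replicate 3, which was the lowest library for 6 of the 10 genes.

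Levels of different genes can be compared only per length. Per kilobase of annotated exon, the mean over the 7 libraries of both diets was 130 ± 10.7 CPM (SD, n = 7) for Tubb3. It was 123 ± 11.9 for Map1b and 114 ± 17.4 for Nefl, with overlapping SD ranges. All genes were measured in the same libraries, and differences between genes within a library were not tested here. Map1a followed with 87.0 ± 12.1, then Mapt with 71.6 ± 3.25 and Map2 with 70.7 ± 9.31, the SD ranges of Mapt and Map2 overlapping. Stmn2 had 36.6 ± 1.48, and Nefh (17.9 ± 5.76), Nefm (16.0 ± 4.22) and Ina (13.6 ± 2.16) came last with overlapping ranges. Per kilobase of the longest annotated transcript instead, Map2 came first with 186 CPM and Map1b next with 165 CPM. Nefm, with 25.1 CPM, then came above Nefh, with 17.9 CPM. The order thus depends on the length used.

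Markers of cells that are rich in neurofilaments or that wrap axons were set beside these values, and no association between them was computed. The 10 parvalbumin interneuron markers, which label fast-spiking inhibitory neurons, summed to 885 to 1142 CPM in CD and to 845, 847 and 518 CPM in KD replicates 1 to 3. Of these 10 markers 9 had a lower level in KD, 3 of them with a raw p under 0.05 in edgeR. Over all tested genes, 3.19% had a raw p under 0.05 and 49.0% a higher level in KD. KD replicate 3 was lowest both in the sum of the parvalbumin interneuron markers and in Nefh. The 12 markers of layer 5 and 6 projection neurons, which include large cells with thick axons, summed to 577 to 950.3 CPM in CD and 576 to 739 CPM in KD, and 7 of the 12 had a lower and 5 a higher level in KD (median log2 fold change -0.13), 1 of the latter with a raw p under 0.05. All 10 oligodendrocyte markers had a lower level in KD, none with a raw p under 0.05, and their sums are given above. Their part in the neurofilament values was not tested. Without CD replicate 3 and KD replicate 3, the libraries lowest in oligodendrocyte markers, the log2 fold change was -0.30 for Ina, -0.43 for Nefh and 0.31 for Map2, each with an adjusted p of 0.849 in edgeR. The raw p of Ina was then above 0.01 (0.0153) and that of Nefh below 0.05 (0.0384).

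**Figure D4:**
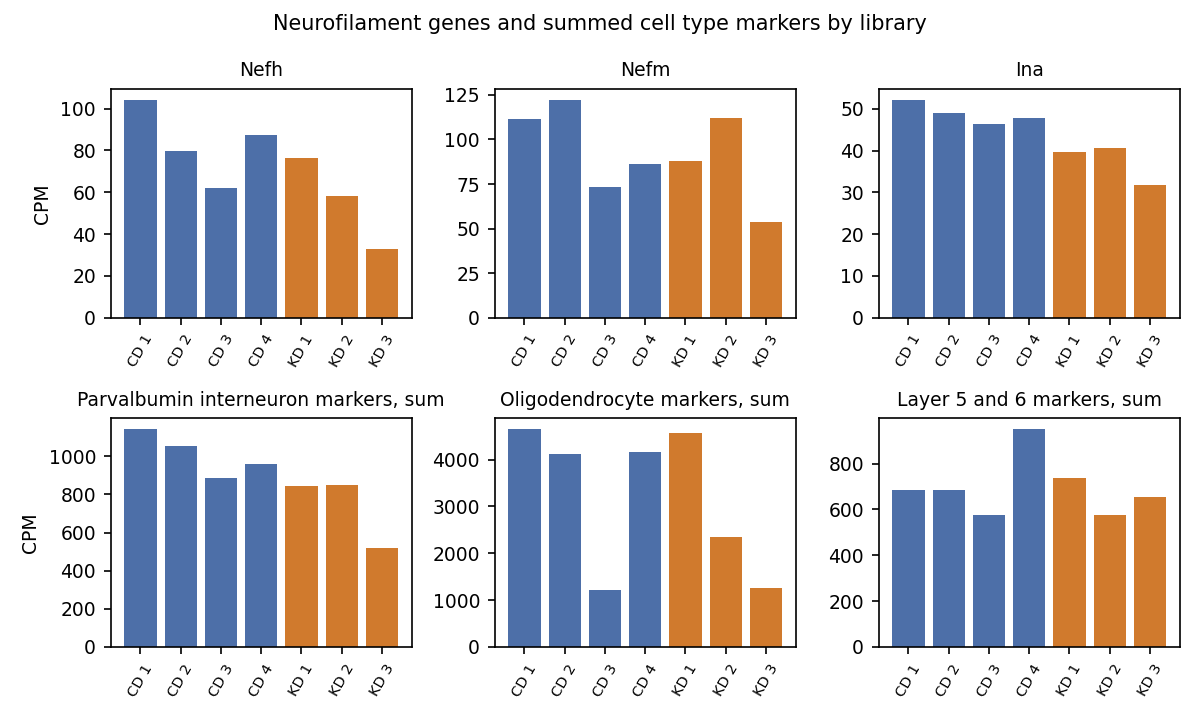
CPM of Nefh, Nefm and Ina in each library, beside the summed CPM of the parvalbumin interneuron, oligodendrocyte and layer 5 and 6 markers (blue for CD, orange for KD, 1 bar for each library). KD replicate 3 has the lowest bar for Nefh, Nefm, Ina and the parvalbumin markers, while the oligodendrocyte sum is lowest in CD replicate 3.

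The genes whose pattern over the 7 libraries was most like that of Nefh, among 9944 genes of at least 10 CPM, were Limk1 (Pearson r = 0.995), Gpr146 (0.985), Slc25a33 (0.981), Rsrc1 (0.980) and Ephb2 (0.980). Limk1 encodes a kinase that acts on the actin regulator cofilin, and Ephb2 a receptor for ephrins. For Mapt they were Rnf138 (0.982), Lonp2 (0.964), Zfp868 (0.960), Dhrs7b (0.951) and Klhl15 (0.932). These are the highest of many values, each over only 7 libraries that share their depth and tissue differences, and they are given as a description.

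Other genes of the same structures were looked up in 8 lists. Outside the 10 genes these held 148 tested genes, 77 with a higher and 71 with a lower level in KD and a median log2 fold change of 0.00314. Of these 148 genes, 0 reached a raw p of 0.01 in edgeR or in DESeq2. In edgeR 0.321% of all tested genes reached it. A raw p under 0.05 was reached in edgeR by 2 of the 148 (1.35%), against 3.19% of all tested genes, and an adjusted p of 0.05 by 0. The diets did not overlap for 7 of the 148 (4.73%), near the 4.11% of all tested genes.

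Among filament and linker genes, 7 of 9 were lower in KD, with a median of -0.16, and -0.02 for the 5 outside the neurofilament subunits. The median of the 9 was -0.10 without CD replicate 1, -0.09 without CD replicate 2, -0.24 without KD replicate 2 and -0.07 without KD replicate 3. The crosslinkers Dst and Macf1, which tie filaments to microtubules and actin, had log2 fold changes of -0.02 and 0.11. Peripherin (Prph), an intermediate filament of peripheral neurons, had a value of -2.07 (standard error 0.93, exact permutation p = 0.171). That value rested on 195 counts in CD replicate 4, against 7 to 23 counts in the other libraries.

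Among the 32 tested structural microtubule-associated proteins 17 were higher and 15 lower, with a median of 0.00160, and Map2 alone had a raw p under 0.05. Doublecortin (Dcx), a microtubule stabiliser of young neurons, came closest to Map2 with 0.27 (standard error 0.16, exact permutation p = 0.229). Of the 16 tubulins 10 were higher and 6 lower, with a median of 0.05. Tubb4a, a beta tubulin that is abundant in oligodendrocytes as well as neurons, had 187, 140, 129 and 134 CPM in the CD mice and 124, 115 and 99.5 CPM in the KD mice. Its KD mice were all below its CD mice, with a log2 fold change of -0.39 (standard error 0.14, raw p = 0.0265 in edgeR, exact permutation p = 0.0571). Tuba1a, the main neuronal alpha tubulin, had 481 ± 28.0 CPM (SD, n = 4) in CD against 529 ± 10.5 CPM (SD, n = 3) with KD, without overlap. Its log2 fold change was 0.14 (standard error 0.08, raw p = 0.115 in edgeR, exact permutation p = 0.0571).

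The remaining lists stayed near 0. The median was -0.03 for the 4 stathmins, 0.00638 for 31 kinases and phosphatase subunits that act on tau, and 0.00714 for 28 motor proteins of axonal transport. It was -0.01 for 24 enzymes and chaperones that modify, fold or sever tubulin, and 0.06 for 15 genes of the axon initial segment and the membrane skeleton. Gsk3b and Cdk5, which encode well-known tau kinases, each had a log2 fold change of -0.06. The severing enzyme gene Fign had 1.23, with 12.7 CPM in KD replicate 3 against at most 3.24 CPM in the other libraries. Vash2, which removes the terminal tyrosine of alpha tubulin, was at 2.72 ± 0.438 CPM (SD, n = 3) with KD, against 4.16 ± 0.830 CPM (SD, n = 4) with CD. Its diets did not overlap, with a log2 fold change of -0.61 (standard error 0.23, raw p = 0.0280 in edgeR, exact permutation p = 0.0571).

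**Figure D5:**
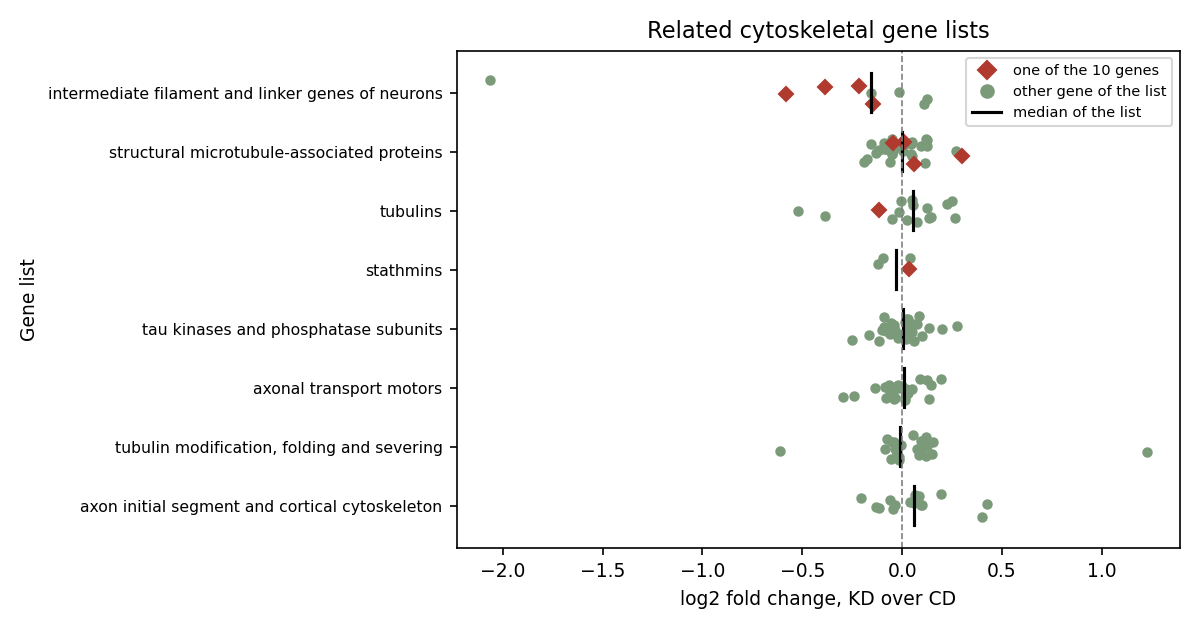
Log2 fold change of KD over CD (edgeR, 7 libraries) for each tested gene of the 8 cytoskeletal lists, with red diamonds for the 10 genes described here, green points for other genes and a black line for the median of the list. The medians lie between -0.16 and 0.06, and the points at -2.07 and 1.23 are Prph and Fign.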

How the data were processed

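RNA from frozen cortex was made into stranded total RNA libraries (TruSeq Stranded Total RNA Gold) and sequenced. According to the methods, STAR mapped the reads to mm10 and counted them as HTSeq does. The values deposited by the authors are raw counts per gene symbol, 1 file for each mouse, without normalization or pooling. Versions, annotation and the strand setting of the counting are not given in the sources used here. Diet and replicate came from the sample titles, which carry a separate animal code for each library.

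The whole table was fitted with edgeR 4.0.16 in R 4.3.3: filterByExpr (15881 genes with 99.97% of all counts), TMM factors of 0.978 to 1.04, estimateDisp, glmQLFit with robust=TRUE and glmQLFTest, KD against CD without covariates, with Benjamini-Hochberg adjustment over all tested genes. Exact permutation tests were two-sided, on the absolute difference of group means of log2 values over all 35 ways to draw 3 of the 7 libraries. Positions and lengths came from GENCODE M21, in which 23059 symbols were matched, 1282 of them through older names, and promoter windows from RefSeq (GRCm38.p6). The fitting script was tested on simulated data with changes larger than those of the genes described here. Whether differences as small as these would be recovered was not tested. The alternatives are named in the closing section, with DESeq2 1.42.0 and limma 3.58.1 among the tools.

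The 10 genes and all lists were chosen with earlier results of these data known. Genes named are the 10, list genes with a raw p under 0.05, the 5 most like Nefh and Mapt, and markers. Prph, Dst, Macf1, Dcx, Tuba1a, Fign, Gsk3b, Cdk5 and Nt5c2 were named after their values were seen.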

Additional observations from a re-analysis of the deposited data

Results flagged for a closer look

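Within CD, 32 quantities (the 10 genes, the 8 ratios and 14 marker sums) were screened with Dixon's ratio, the distance of an extreme library to its neighbour as a share of the whole CD range. In 4 of them it passed the 95% critical value for 4 samples, and chance alone gives about 1.6. CD replicate 3 accounted for 3 of these. Its log2 ratio of Nefm to Nefl was -2.25, with the other CD libraries at -1.98 to -1.97 (Dixon's ratio 0.954). Its log2 ratio of Stmn2 to Tubb3 was -0.09, with the others at -0.40 to -0.35 (0.844). Its log2 summed CPM of the oligodendrocyte markers was 10.3, with the others at 12.0 to 12.2 (0.909). The log2 summed CPM of the olfactory bulb markers was 6.08 in CD replicate 4, with the others at 2.72 to 3.27 (0.835). Groups of 3, and therefore KD, were not screened.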

How the results depend on the processing

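The alternatives were RLE, upper-quartile and plain library-size scaling, 2 other filters on low counts (at least 1 count in any library, at least 1 CPM in 3 libraries), DESeq2, the likelihood-ratio test, limma-voom, a replicate block, Xist as a covariate, removal of each library's GC and length trend, 1 count added in the ratios, and each library left out. Leaving out CD replicate 3 and KD replicate 3 together was chosen after seeing the data. The causes of the shifts below were not tested.

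Of the 10 genes, the number at a raw p of at most 0.01 was 2 with library size alone and with DESeq2 (Ina and Map2), 3 with Xist (Ina, Map2 and Nefh, the last at -0.70 with a raw p of 0.00417), 0 after removal of the GC and length trend, 0 with CD replicate 3 and KD replicate 3 left out, and 0 to 1 with each library left out. Over all tested genes it was 120 with DESeq2, 103 with the likelihood-ratio test, 212 with Xist, 156 with CD replicate 3 and KD replicate 3 left out and 19 to 211 with each library left out, against 51 in the edgeR fit reported. An adjusted p under 0.05 was reached by 1 gene with the likelihood-ratio test and by 1 with Xist. Of the related genes, 2 reached the raw threshold with Xist and 0 to 2 with each library left out. Nefm had a raw p of 0.0341 in edgeR with Xist, and an adjusted p of 0.741.

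The sign turned for Stmn2 after removal of the GC and length trend (-0.0081), as it did for Map1a with CD replicate 3 and KD replicate 3 left out (0.069). With each library left out, log2 fold changes ran from -0.47 to 0.025 for Nefm, from -0.015 to 0.053 for Mapt, from -0.12 to 0.072 for Map1a, from -0.0018 to 0.14 for Map1b and from -0.0034 to 0.081 for Stmn2. The medians of the 8 lists ran from -0.24 to -0.07 for filament and linker genes and stayed between -0.10 and 0.09 for the others.

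Replicate numbers 1 to 3 occur in both diets, and the deviations of same-numbered libraries correlated at 0.237, 0.0589 and 0.238. No reference value was computed for these correlations, so whether same-numbered libraries share more than a number was not tested. With a replicate block, which leaves out CD replicate 4, 2 of the 10 genes (Ina, and Nefh at -0.61 with a raw p of 0.00139), 182 of all tested genes and 1 related gene reached the raw threshold of 0.01. Without CD replicate 4 and without the block, 0 of the 10, 33 of all tested genes and 0 related genes reached it. With the block, the raw p in edgeR was 0.0162 for Nefm, 0.0331 for Map2 and 0.0392 for Nefl.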
